A study of Mus musculus with 84 samples.

Results

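Prostanoids and histamine are inflammatory mediators that reach sensory nerve endings in the airway wall, and the genes described here encode 10 of their receptors in mouse. They are the prostaglandin E2 receptors Ptger1, Ptger2, Ptger3 and Ptger4, the prostacyclin receptor Ptgir, the prostaglandin D2 receptor Ptgdr, the thromboxane receptor Tbxa2r and the histamine receptors Hrh1, Hrh2 and Hrh3. The members were taken by gene name, 7 prostanoid and 3 histamine receptors among the 50686 genes of the count table, and all 10 were found. Their levels were read in each single neuron that had at least 5000000 counts, which was 72 of 84 neurons.

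The neurons were sensory neurons of the vagal ganglia of C57BL/6 mice that had been traced from the lungs and bronchi with the lipophilic dye DiI (2%). Traced neurons were picked one at a time, and amplified mRNA from each was sequenced on a NextSeq instrument with reads of 76 bases. All neurons form 1 group with no treatment. The sources used here give no age or sex of the mice and do not say which mouse a neuron came from, so the neurons count as 1 sample and no test was made between them. Intervals given beside shares of neurons are 95% intervals, exact by Clopper and Pearson, and the limit given beside a share of 0 is that of 3 counts. Both cover counting error only.

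Prostanoids are made from arachidonic acid by the cyclooxygenases and then by a separate synthase for each product. Their receptors are G-protein-coupled: Ptger2, Ptger4, Ptgir and Ptgdr act mainly through Gs, which raises cyclic AMP and activates protein kinase A, Ptger3 acts mainly through Gi, and Tbxa2r and Ptger1 raise calcium. Of the histamine receptors, Hrh1 acts through Gq, Hrh2 through Gs and Hrh3 through Gi. In sensory neurons the Gs and Gq pathways are known to sensitise ion channels, and in airways prostaglandins and mast cell histamine are classical stimuli of vagal afferents.

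Total counts of the 72 neurons ranged from 6732279 to 20668832. Levels are in CPM, the counts of a gene after scaling the total of a neuron to 1000000. Detection means a level of at least 10 CPM, equal to 67.3 counts in the neuron with the lowest total. The number of genes detected per neuron ranged from 841 to 8870. Neurons with 5000 or more detected genes (38 neurons, median 7894.5 genes) are called more-gene neurons and the other 34 (median 3076.5 genes) fewer-gene neurons. The labelled cell type was checked with 10 pan-neuronal genes, whose median share of neurons was 98.6%. Transcripts of support cells were present too: the 7 satellite glia genes summed to a median of 1355 CPM (9.01 to 56618). No pair of neurons had identical counts.

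The start regions of Ptger4 and Ptgir, the receptors detected together most often, and of Ptgdr are shown to set the genes beside each other at the sequence level. Each is a RefSeq window on GRCm38.p6 that runs from 250 bases before to 50 bases after the annotated start, on the strand of the gene. The final stretch of each window, within the 50 bases after the start, occurs in GENCODE M21 transcripts of its gene. Capitals mark matches to the GC box (GGGCGG) or the CCAAT box (CCAAT) on either strand. The windows are chr15:5244138-5244437 (minus strand) for Ptger4, chr7:16906240-16906539 (plus strand) for Ptgir and chr14:44859326-44859625 (minus strand) for Ptgdr.
Ptger4: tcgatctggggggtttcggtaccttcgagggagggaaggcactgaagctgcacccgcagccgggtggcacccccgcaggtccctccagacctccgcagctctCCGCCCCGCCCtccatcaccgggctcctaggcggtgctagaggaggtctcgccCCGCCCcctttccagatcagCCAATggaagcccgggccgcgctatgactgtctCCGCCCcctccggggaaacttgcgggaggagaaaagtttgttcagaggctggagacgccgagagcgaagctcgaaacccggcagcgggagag
Ptgir: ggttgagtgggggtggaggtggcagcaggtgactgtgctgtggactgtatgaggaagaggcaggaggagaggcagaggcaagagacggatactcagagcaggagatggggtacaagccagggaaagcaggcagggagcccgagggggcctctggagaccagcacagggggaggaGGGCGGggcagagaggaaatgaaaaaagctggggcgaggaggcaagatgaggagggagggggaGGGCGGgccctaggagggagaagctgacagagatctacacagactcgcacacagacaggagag
Ptgdr: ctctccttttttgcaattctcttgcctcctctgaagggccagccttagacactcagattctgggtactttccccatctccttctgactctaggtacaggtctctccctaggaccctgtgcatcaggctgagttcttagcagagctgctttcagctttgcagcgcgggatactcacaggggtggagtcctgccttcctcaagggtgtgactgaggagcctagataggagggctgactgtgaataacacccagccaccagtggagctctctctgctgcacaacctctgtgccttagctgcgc

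The Ptger4 window was 67% G and C with 25 CpG sites, the Ptgir window 62% with 6, and the Ptgdr window 54.7% with 3, against a median of 52.7% G and C over 32851 windows. The Ptger4 window held 4 GC boxes, a pair of which share a letter, and 1 CCAAT box, the Ptgir window held 2 GC boxes, and the Ptgdr window held neither. A GC box occurred in 35.7% of all windows and a CCAAT box in 37.4%. The TATA box (TATAAA, 13.6% of windows), the cyclic AMP response element (TGACGTCA, 1.79%) and its short form (TGACG, 20.8%) were not found in these 3 windows on either strand. A match is a description of the letters only. The Ptger2 window is not shown because its final stretch was in no GENCODE M21 transcript of that gene.

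Among the Gs-coupled prostanoid receptors, Ptger4 was found most often and Ptgdr least often, and these 4 receptors were each detected in 24 or more of the 72 neurons. The other 6 members were each detected in 8 or fewer. Over the whole table, 16068 genes got to 10 CPM in 1 neuron or more, with a median share of 27.8% of neurons, and 34% of them did so in 50% or more of the neurons. Ptger4 alone among the members reached that share.

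Ptger4 (ENSMUSG00000039942, chr15:5206661-5244187, minus strand) encodes the prostaglandin E2 receptor EP4. It was detected in 36 of 72 neurons (50%, interval 37.98 to 62.02%), with a lowest level of 0, a median of 9.34 and a highest of 1067 CPM. The neurons fell into separate ranges, since the lowest detected level was 14.5 CPM and the highest level below the threshold was 4.15 CPM. Among the 36 neurons above it, the median was 91.1 CPM, and 28 had 50 CPM or more. The highest value belonged to AM225, a fewer-gene neuron. Only 82 bases (1.23%) of the Ptger4 exons lie opposite exons of Ttc33, a gene detected in 61 neurons, and the overlapping pseudogene Gm15937 had no counts.

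Ptger2 (ENSMUSG00000037759, chr14:44988195-45003820, plus strand) encodes the other Gs-coupled prostaglandin E2 receptor, EP2. It was detected in 27 of 72 neurons (37.5%, 26.4 to 49.7%) at 10.5 to 248.8 CPM, and its median over all 72 was 0.246 CPM. Detected levels were lower than those of Ptger4, with a median of 28.98 CPM and 8 neurons at 50 CPM or more. The 3 highest values were 248.8 CPM in AM302, 240.3 CPM in AM253 and 206 CPM in AM006, and these 3 neurons held 45.7% of the summed CPM of the gene.

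Ptgir (ENSMUSG00000043017, chr7:16906490-16910905, plus strand) encodes the prostacyclin receptor IP. It was detected in 35 of 72 neurons (48.6%, 36.7 to 60.7%), with levels from 0 over a median of 6.77 to 343 CPM. Detected levels had a median of 73.2 CPM, and 20 neurons had 50 CPM or more. The detected neurons began at 12.9 CPM and the undetected ones ended at 7.84 CPM, a narrower gap than that of Ptger4.

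Ptgdr (ENSMUSG00000071489, chr14:44851235-44859375, minus strand) encodes the prostaglandin D2 receptor DP1 and lies 128.819 kb from Ptger2, with 5 annotated genes and no protein-coding gene between them. It was detected in 24 of 72 neurons (33.3%, 22.7 to 45.4%) at 12.8 to 181 CPM, with a median of 20.7 CPM among those neurons. Ptgdr was mostly low where present: 3 neurons had 50 CPM or more, namely AM249 with 181 CPM, AM059 with 57.1 CPM and AM275 with 55.7 CPM. The undetected neurons reached up to 9.14 CPM, so the threshold runs through a continuous range for this gene. The overlapping pseudogene Gm16976 lies opposite 22.1% of the Ptgdr exons and had at most 0.685 CPM.

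Ptger1, Ptger3 and Tbxa2r, the prostanoid receptors among the members that act through other G proteins, were rare. Ptger1 (ENSMUSG00000019464, chr8:83666678-83672753), the receptor EP1, was detected in 2 neurons (2.78%, 0.338 to 9.68%), with 14.3 CPM in AM021 and 12.96 CPM in AM069. Ptger3 (ENSMUSG00000040016, chr3:157566892-157645888), the Gi-coupled receptor EP3, was detected in AM011 alone, at 17.3 CPM. Tbxa2r (ENSMUSG00000034881, chr10:81328731-81335172), the thromboxane receptor, was detected in AM006 alone, at 13.5 CPM. Lower levels were more common: 23 neurons had at least 1 count of Ptger1, 15 of Tbxa2r and 10 of Ptger3. For Ptger1 these counts are uncertain, because no source used here gives the strand setting of the counting.

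Histamine receptors were found in fewer neurons than the Gs-coupled prostanoid receptors. Hrh1 (ENSMUSG00000053004, chr6:114397936-114483296), the Gq-coupled H1 receptor, was detected in 8 of 72 neurons (11.1%, 4.92 to 20.7%). Its levels were 138 CPM in AM010, 63.3 in AM303, 51.1 in AM267, 33.6 in AM072, 29.1 in AM020, 17.95 in AM019, 16.6 in AM221 and 12.4 in AM065. These neurons were spread over more-gene (6) and fewer-gene (2) neurons, and the highest was a fewer-gene neuron. Hrh3 (ENSMUSG00000039059, chr2:180099465-180104488), the Gi-coupled H3 receptor, was detected in 4 neurons (5.56%, 1.53 to 13.6%), with 23.3 CPM in AM257, 12.5 in AM291, 12.5 in AM210 and 12.03 in AM281. Of the 4 values, the 3 lower ones sat close to the threshold, and 8 further neurons had at least 1 count. Hrh2 (ENSMUSG00000034987, chr13:54192129-54236180), the Gs-coupled H2 receptor, was detected in AM021 alone, at 11.99 CPM, and 6 neurons had at least 1 count.

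By share of neurons the order was Ptger4, Ptgir, Ptger2, Ptgdr, Hrh1, Hrh3, Ptger1, and then Ptger3, Tbxa2r and Hrh2 with 1 neuron each. The intervals of neighbours in this order overlapped with 1 exception, the step from Ptgdr (22.7% at the lower bound) to Hrh1 (20.7% at the upper bound). To compare levels between genes, mean CPM in the 38 more-gene neurons was divided by the length of the merged exons. On this per-kilobase scale Ptgir was highest at 23.4, ahead of Ptger4 at 19.4, Ptger2 at 6.01 and Ptgdr at 5.66 CPM per kb. The longer exons of Ptger4 (6648 bases against 3334 for Ptgir) place it behind Ptgir on this scale, although its mean CPM was higher (129 against 78.1 CPM). The remaining members lay between 0.123 (Hrh2) and 1.44 (Hrh1) CPM per kb.

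**Figure D1:**
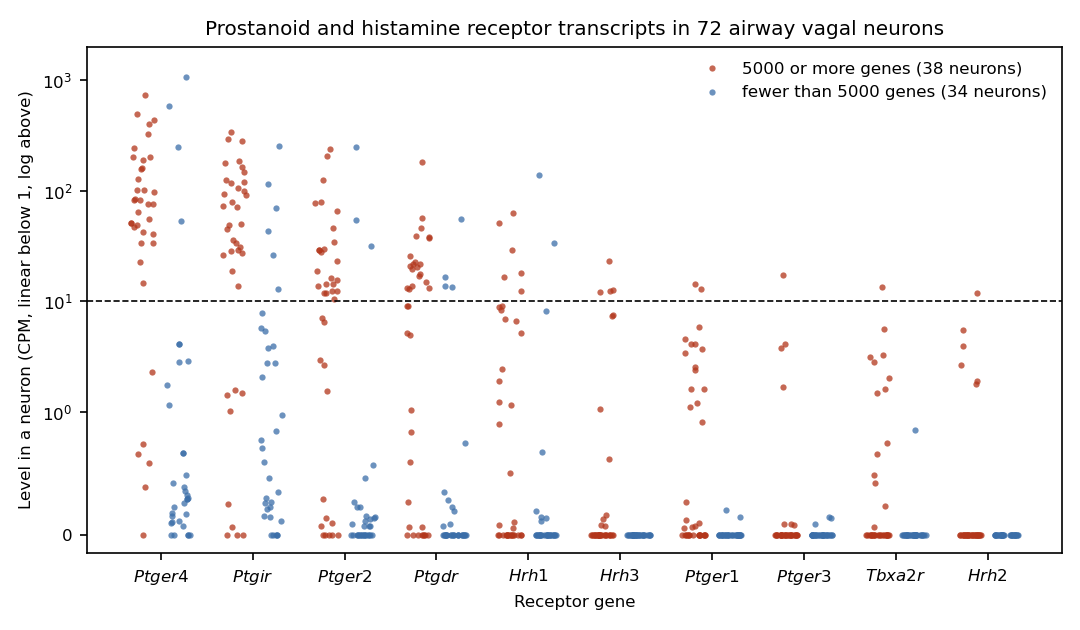
Level of each receptor (CPM, linear below 1 and logarithmic above) in each of 72 neurons, red for neurons with 5000 or more detected genes and blue for the others, with the dashed line at 10 CPM. Ptger4 separates into neurons above 14.5 CPM and neurons below 4.15 CPM, while Hrh3, Ptger1, Ptger3, Tbxa2r and Hrh2 stay at or below 23.3 CPM.

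Detection of the receptors followed the number of genes found in a neuron. The split into more-gene and fewer-gene neurons counts detection at the same 10 CPM, so higher detection of most genes in more-gene neurons follows from the split itself. Ptger4 was detected in 32 of 38 more-gene neurons (84.2%) and 4 of 34 fewer-gene neurons (11.8%), a difference of 72.4 percentage points (Newcombe 95% interval 51.6 to 83.4). Ptgir was detected in 29 against 6 (58.7 points), Ptger2 in 24 against 3 (54.3 points) and Ptgdr in 20 against 4 (40.9 points). These 4 of the 10 members passed a difference of 40 points, the size used here to name a difference. They were 4 of the 5 members detected in 5 or more neurons. Of the 11351 genes detected in that many neurons, 53.8% passed it and 0.0881% passed it downward. The median difference over all those genes was 43.2 points, so a shift of this kind was common to most genes. The 34 fewer-gene neurons had a lower median total (11036100 against 14290200 counts). Their satellite glia sum was higher, with a median of 1673 CPM (9.01 to 56618) against 615 CPM (38.99 to 9793), and the part of these values in the result was not tested.

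In the fewer-gene neurons Ptger4 was either high or near 0. It was found in AM225 at 1067 CPM, in AM302 at 589.5 CPM, in AM282 at 247 CPM and in AM223 at 53.1 CPM, and at no more than 4.15 CPM in the rest. These levels match or exceed the more-gene median of 75.4 CPM in 3 of the 4 neurons. Ptgir in AM023 (256 CPM) and Ptger2 in AM302 (248.8 CPM) were of the same kind. Because absence in a fewer-gene neuron cannot be told apart from loss of most transcripts, the combinations and classes below use the 38 more-gene neurons.

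**Figure D2:**
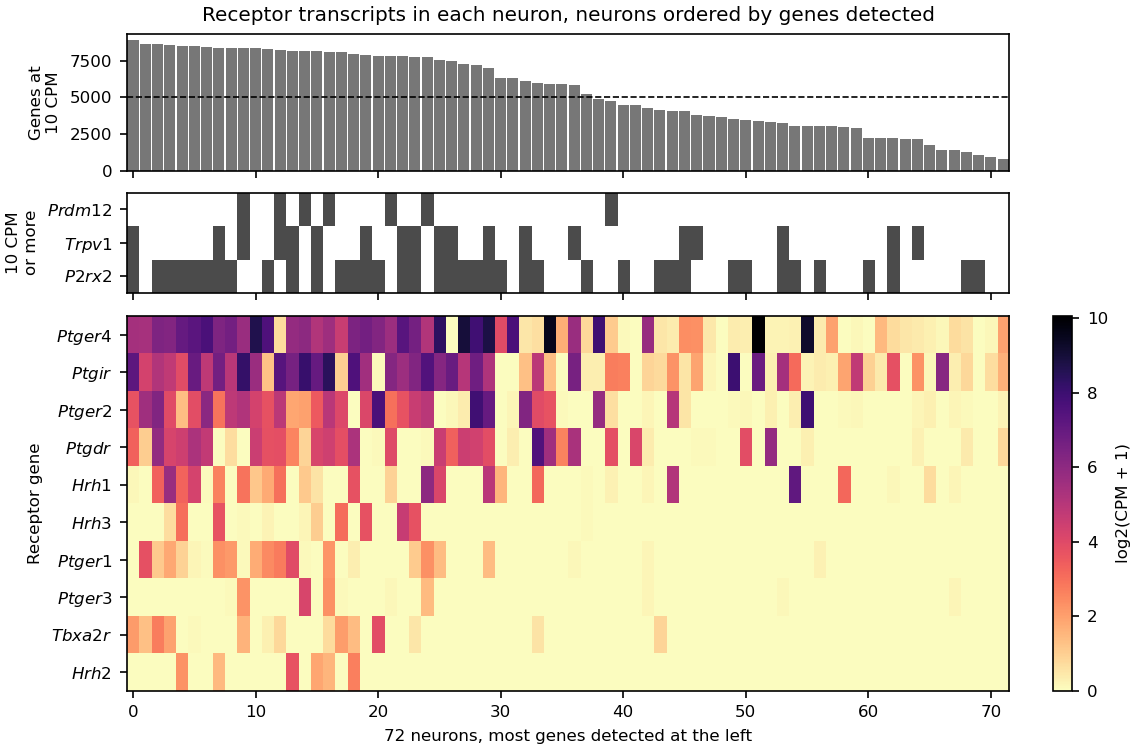
Each column is 1 of 72 neurons, ordered by the number of genes at 10 CPM or more (top, with a dashed line at 5000). The middle rows mark neurons with Prdm12, Trpv1 or P2rx2 at 10 CPM or more, and the colours show log2(CPM + 1) of each receptor: the 4 upper receptors fill the left side, and isolated dark cells remain on the right.

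Most more-gene neurons carried several of these receptors. At least 1 member was detected in 36 of 38 more-gene neurons (94.7%, 82.3 to 99.4%) and in 15 of 34 fewer-gene neurons (44.1%). The median number per neuron was 3 (range 0 to 5) against 0 (range 0 to 2). Of the 38 neurons, 2 had none, 4 had 1, 15 had 3, 14 had 4 and 3 had 5, and no neuron had exactly 2.

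**Figure D3:**
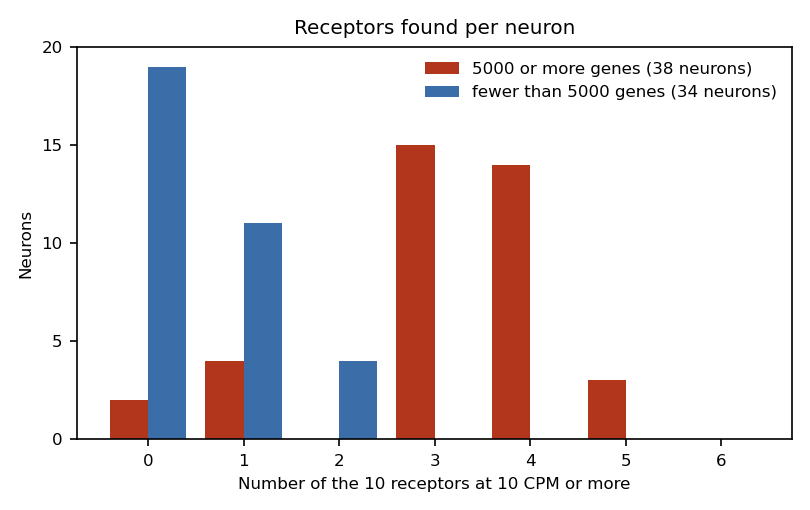
Number of neurons (vertical axis) with each number of the 10 receptors at 10 CPM or more (horizontal axis), red for the 38 neurons with 5000 or more detected genes and blue for the other 34. Red bars peak at 3 and 4 receptors with 15 and 14 neurons, and blue bars at 0 with 19 neurons.

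The Gs-coupled prostanoid receptors made up most of these combinations. Exactly 3 of Ptger2, Ptger4, Ptgir and Ptgdr were detected in 19 more-gene neurons and all 4 in 9 (23.7%, 11.4 to 40.2%). The most frequent combination was exactly these 4 receptors, in 6 neurons, followed by Ptger4, Ptgir and Ptgdr in 4. Ptger4 and Ptgir were detected together in 26 neurons, which is 81.2% of the Ptger4 neurons and 89.7% of the Ptgir neurons. Their levels did not rank alike across those neurons: Spearman rho was -0.06 over the 38 neurons. The pair of prostaglandin E2 receptors, Ptger2 and Ptger4, was found together in 21 neurons (rho 0.08), and the neighbouring genes Ptger2 and Ptgdr in 14 (rho -0.04). The highest rho among the 4 receptors was 0.30, between Ptger4 and Ptgdr, found together in 18 neurons. These correlations are descriptions over neurons, which share the depth and quality of their libraries.

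Each more-gene neuron with a histamine receptor also had prostanoid receptors, but 36 of all 38 more-gene neurons had at least 1 Gs-coupled prostanoid receptor. All 6 Hrh1 neurons and all 4 Hrh3 neurons also had Ptger4 and Ptgir, as did the single Hrh2 neuron, where 26 of all 38 had that pair. Of the fewer-gene neurons with Hrh1, AM010 had no other member and AM072 had Ptger2. Hrh1 and Hrh3 were not detected in the same neuron at 10 CPM. Below that limit AM022 had 8.80 CPM of Hrh1 and 7.33 CPM of Hrh3, and the Hrh3 neuron AM281 had 5.19 CPM of Hrh1. Ptgdr was found in 5 of the 6 Hrh1 neurons, where 20 of all 38 had it. It was found in none of the 4 Hrh3 neurons, each of which had 0 CPM of Ptgdr. This too depends on the limit: AM239 had 7.58 CPM of Hrh3 with 13.3 CPM of Ptgdr, and AM022 had 21.1 CPM of Ptgdr.

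The vagal ganglia join a jugular part, whose neurons express the transcription factor Prdm12, and a nodose part, in which the ATP-gated channel P2rx2 is typical. Prdm12 reached 10 CPM in 6 of the 38 more-gene neurons. None of the 10 members differed by 40 points in detection between these 6 and the other 32, where 4.37% of all genes were higher and 1.92% lower by that size. Ptger4 was detected in 5 of 6 against 27 of 32, Ptger2 in 4 of 6 against 20 of 32, and Ptgdr in 3 of 6 against 17 of 32. For Ptger4 the difference was -1.04 points with an interval from -41.7 to 20.1, so differences of either sign remain possible with 6 neurons.

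Ptgir, the prostacyclin receptor, had higher levels in the Prdm12 neurons. In the 6 Prdm12 neurons its lowest level was 73.2, its median 229 and its highest 343 CPM, and in the other 32 the lowest was 0, the median 32.6 and the highest 187 CPM. The ranges overlap, with AM013 (343 CPM), AM237 (294.6 CPM) and AM011 (279.6 CPM) above every other neuron. The ratio of medians was 7.02, and 3.63% of 8392 genes with a median of 10 CPM in either class were 5-fold or more higher in Prdm12 neurons. At a limit of 50 CPM all 6 Prdm12 neurons and 11 of the other 32 had Ptgir, a difference of 65.6 points (22.9 to 79.6) where 4.60% of genes differed by 40 points or more in that direction. At 10 CPM the shares were 6 of 6 and 23 of 32, a difference of 28.1 points (-12.9 to 45.4). Neuron identifiers run in 3 blocks, which the labels do not call batches. Within block 1 the 2 Prdm12 neurons had a median of 311 CPM and the 9 others one of 35.96 CPM, within block 3 they were 171 CPM in 4 and 28.5 CPM in 19, and block 2 had no Prdm12 neuron in this class. A seventh Prdm12 neuron, AM304, was a fewer-gene neuron and had 5.71 CPM of Ptgir.

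Ptger3, the Gi-coupled receptor, was low everywhere and its counts lay mostly in the same neurons. Its CPM was 17.3 in AM011, 4.11 in AM013, 3.78 in AM237, 1.67 in AM303, 0.0898 in AM228 and 0 in AM296. Among the other 32 neurons the highest level was 0.0844 CPM. A count of 1 or more was present in 5 of 6 neurons with Prdm12 and 2 of 32 without, a difference of 77.1 points (35.04 to 91.5) where 3.09% of genes were higher by 40 points at that limit. At 10 CPM it was 1 of 6 against 0 of 32.

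Of the other-cell lists, the mast cell sum moved with this split, with 0 to 268 CPM (median 114) in Prdm12 neurons and 0 to 42.7 CPM (median 0.578) in the others. It came from Kit, detected in 15 of 72 neurons, while the other 7 genes of that list, Hdc, Cpa3 and Cma1 among them, were detected in none and Tpsb2, Mcpt4 and Fcer1a had no counts. The satellite glia sum was lower in Prdm12 neurons, with a median of 384 CPM (92.9 to 2418) against 995 CPM (38.99 to 9793), and its part in the result was not tested. Of the 6 erythrocyte and platelet genes, over all 72 neurons Itga2b was detected in 15, Hba-a1 in 8, Hbb-bs in 2, Pf4 in 1, and Alas2 and Gp9 in none, and their sum had a median of 7.99 CPM (3.36 to 34.9) in Prdm12 neurons against 9.02 CPM (0.0718 to 66.7).

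Among the 32 neurons without Prdm12, Trpv1, the capsaicin-gated channel of nociceptors, was detected in 12. No member passed 40 points between these 12 and the other 20, where 1.46% of genes were higher and 1.44% lower by that size. Ptgir was detected in 11 of 12 against 12 of 20, a difference of 31.7 points (-0.895 to 54.1), and ranged from 1.49 to 147 CPM (median 85.3) against 0 to 187 CPM (median 22.5). The ranges overlap throughout, but at 50 CPM the shares were 8 of 12 against 3 of 20, a difference of 51.7 points (16.96 to 73.5) where 1.57% of genes were higher by 40 points. Within the identifier blocks the medians of Ptgir were 93.9 against 29.3 CPM in block 1 (3 and 6 neurons), 147 against 33.9 CPM in block 2 (1 and 3) and 75.2 against 1.41 CPM in block 3 (8 and 11). Set side by side, the median level of Ptgir was 229 CPM in Prdm12 neurons, 85.3 CPM in Trpv1 neurons and 22.5 CPM in neurons with neither.

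Ptgdr, the prostaglandin D2 receptor, did not pass the size either, and its difference had the opposite sign. It was detected in 4 of 12 Trpv1 neurons against 13 of 20 others, a difference of -31.7 points (-57.5 to 3.45), with median levels of 7.04 and 18.7 CPM. Hrh3 was detected in 4 of 12 against 0 of 20 (a share of up to 15% is allowed by 0 of 20), a difference of 33.3 points (8.02 to 60.9). The 4 Hrh3 neurons had 269 (AM257), 36.5 (AM291), 165 (AM210) and 137 (AM281) CPM of Trpv1. All 4 belonged to identifier block 3, where the counts were 4 of 8 against 0 of 11, and the 4 Trpv1 neurons of the other blocks had none. The Hrh3 difference was 44.4 points without block 1, but 16.7 points at a limit of 1 count (5 of 12 against 5 of 20) and 8.33 points at 20 CPM (1 of 12 against 0 of 20). For Ptger4 (10 of 12 against 17 of 20) the difference was -1.67 points (-31.4 to 22.5), for Ptger2 (7 against 13) -6.67 points (-37.99 to 24.5) and for Hrh1 (2 against 3) 1.67 points (-22.5 to 31.4). The endothelial sum moved with this split, with a median of 31.2 CPM (0.0699 to 83.3) in Trpv1 neurons and 0.0849 CPM (0 to 120.1) in the others. Of its 7 genes, over all 72 neurons Flt1 was detected in 11, Cldn5 in 3, Kdr in 2, Emcn in 1, and Pecam1, Cdh5 and Tek in none. The Schwann cell sum moved the other way, with a median of 864 CPM (140.4 to 2075) in Trpv1 neurons against 1681 CPM (416 to 2527), and the part of both sums in these results was not tested.

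**Figure D4:**
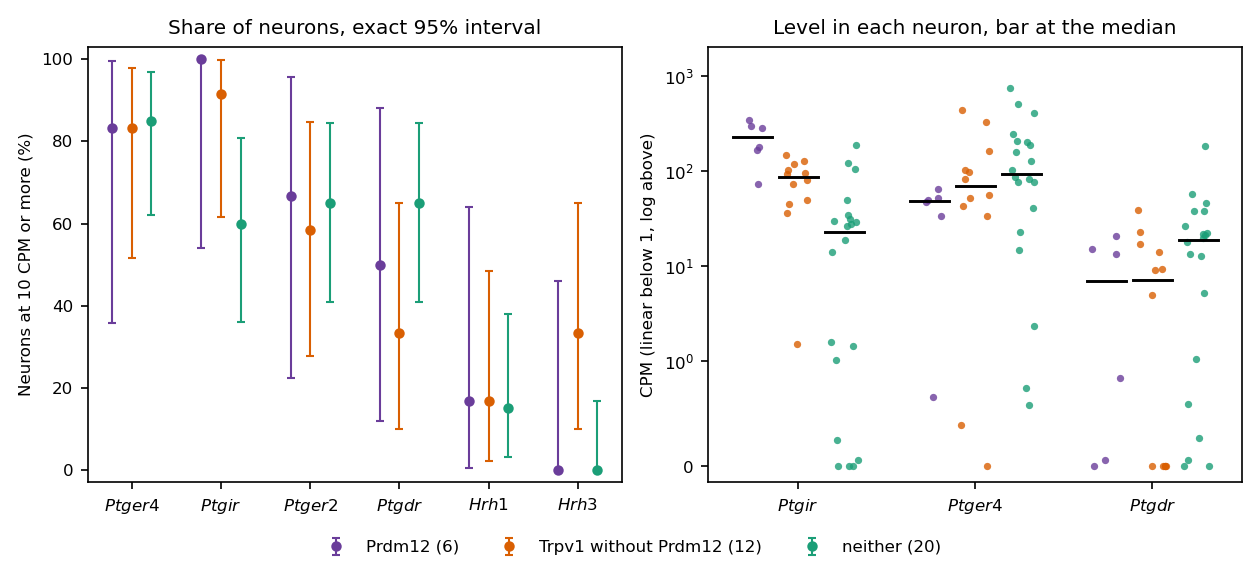
Left, share of more-gene neurons (%) with 6 receptors at 10 CPM or more in Prdm12 neurons (6), Trpv1 neurons without Prdm12 (12) and neurons with neither (20), with exact 95% intervals. Right, level of Ptgir, Ptger4 and Ptgdr in each of these neurons (CPM, linear below 1 and logarithmic above) with bars at the medians: Ptgir steps from 229 over 85.3 to 22.5 CPM while Ptger4 has 48.01, 69.4 and 92.8 CPM in the same order.

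P2rx2 was detected in 26 of the 32 neurons without Prdm12. No member passed 40 points between these 26 and the other 6, where 4.27% of genes were higher and 0.59% lower by that size. Ptgir was found in 20 of 26 against 3 of 6, Ptger2 in 17 against 3, Ptger4 in 22 against 5 and Ptgdr in 14 against 3. Hrh1 (5 of 26) and Hrh3 (4 of 26) were not found in the 6 neurons without P2rx2, which allows a share of up to 50%. The 4 Hrh3 neurons had 254.8 to 377 CPM of P2rx2. The satellite glia sum moved with this split, with a median of 1355 CPM (113 to 9793) in P2rx2 neurons against 203.6 CPM (38.99 to 2589). The Schwann cell sum moved the other way, with 1201 CPM (140.4 to 2449.8) in P2rx2 neurons against 2102 CPM (833 to 2527). The part of both sums in these values was not tested.

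For each receptor detected in 8 or more of the more-gene neurons, the 3 genes with the most similar level were taken by Spearman rho over the 38 neurons among 9206 genes. For Ptgir they were Frmpd1 (rho 0.76), the sugar transporter Slc2a6 (0.70) and the phospholipid flippase Atp8a1 (0.68). For Ptger4 they were Fbp1, an enzyme of gluconeogenesis (0.73), the kinase Map2k4 (0.67) and the potassium channel Kcnk18 (0.67). Those of Ptger2 were Ankrd39 (0.72), Tor1aip1 (0.64) and Edil3 (0.58), and those of Ptgdr were Slitrk4 (0.70), the synaptic vesicle gene Synpr (0.66) and the semaphorin receptor Plxnc1 (0.66). These are the highest of 9206 values each, and all genes of 1 neuron share the depth of its library. No gene appears for more than 1 receptor.

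Of 4 further receptors of the same ligands, only Ptgfr, the prostaglandin F receptor, was detected. It was found in 19 of 72 neurons (26.4%, 16.7 to 38.1%) at up to 183 CPM, 17 of them more-gene neurons, which places it between Ptgdr and Hrh1. The prostaglandin D2 receptor Ptgdr2 had no counts, the histamine receptor Hrh4 had at most 1.79 CPM, and the nuclear receptor Pparg at most 3.79 CPM. A share of 0 of 72 neurons allows up to 4.17%.

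Genes for the first steps of prostanoid synthesis were scarce in these neurons. Of 12 synthesis genes 9 were detected in some neuron, with Ptges3 in 70, Cbr1 in 49, Akr1b3 in 30 and Ptges2 in 29. Ptges3 is also a chaperone cofactor, and Cbr1 and Akr1b3 are reductases with other substrates. The cyclooxygenase Ptgs1 reached at most 9.33 CPM, Ptgs2 was detected in 1 neuron at 12.5 CPM, and the phospholipase Pla2g4a reached 0.243 CPM. Among transport and breakdown genes, Ptgr2 was detected in 38 neurons, the exporter Abcc4 in 18, Ptgr1 in 15 and the uptake carrier Slco2a1 in 2, while the dehydrogenase Hpgd reached at most 9.53 CPM. For histamine, the synthesising enzyme Hdc reached at most 7.90 CPM. The vesicular carrier Slc18a2 was detected in 28 neurons, the methyltransferase Hnmt in 24 and Maob in 15, and Aoc1 and Slc22a3 in none.

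**Figure D5:**
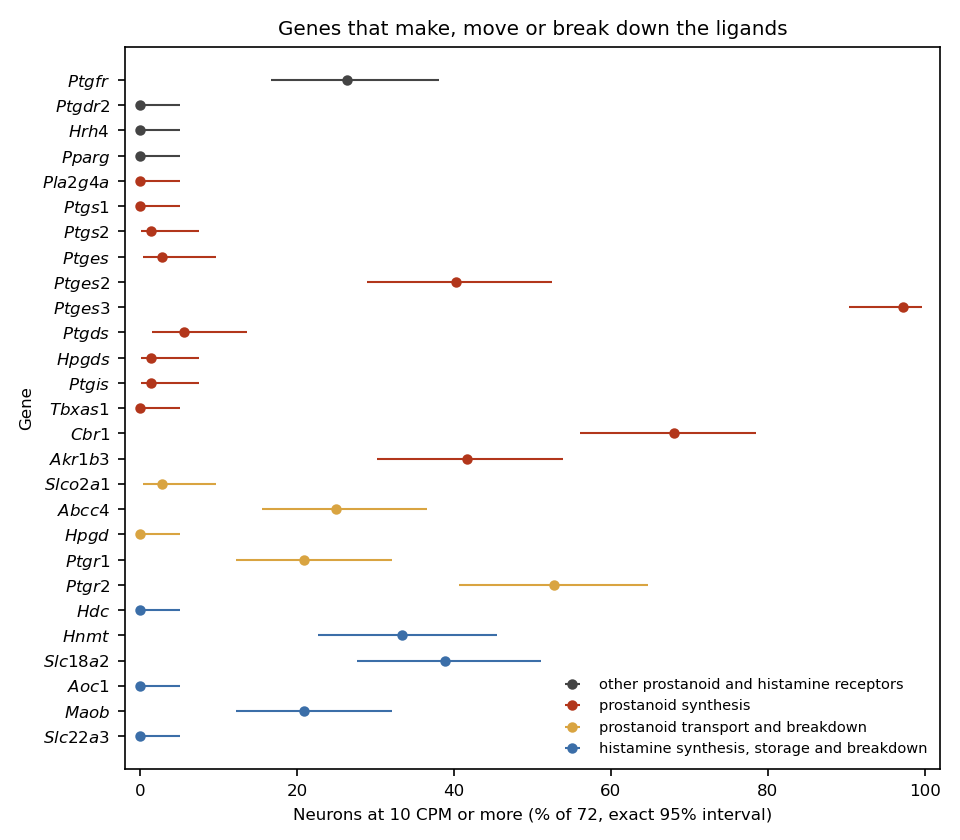
Share of 72 neurons (%) with each gene at 10 CPM or more, with exact 95% intervals, coloured by list. Ptges3, Cbr1 and Ptgr2 exceed 50%, while Ptgs1, Pla2g4a, Hpgd and Hdc were detected in 0 neurons.

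The signalling genes that these receptors act through were widely present. Of 19 Gs pathway genes 16 were detected in at least 1 neuron and 11 in 50% or more, with the protein kinase A subunits Prkar1a in 69, Prkar1b in 67 and Prkacb in 62 neurons, and Prkar2a and the Gs-family subunit Gnal in 61 each. Of 14 Gq pathway genes 13 were detected, led by the G protein Gnaq in 70 neurons and the kinases Prkce in 63 and Prkca in 49, then Gna11 and Prkcb in 46 each. Of 10 genes of the Gi and related pathways 9 were detected, with Gnao1 in all 72 neurons, Gnai2 in 67, Gna13 in 61 and Gnai1 in 55. The median share was 68.1% for the Gs list, 59.03% for the Gq list and 71.5% for the Gi list, against 27.8% over all genes that reached 10 CPM in a neuron.

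Of 12 ion channel genes known to be sensitised through these pathways, all were detected in at least 1 neuron and 7 in 50% or more. The sodium channel Scn9a was found in 57 neurons, Scn11a in 46 and Scn10a in 44, and the potassium channel Kcnq3 in 50, while the lowest number for a gene of this list was 8. Of 10 genes that end receptor signalling, all were detected in at least 1 neuron and 8 in 50% or more. Rgs4 was found in 66 neurons, Rgs17 in 62, and the arrestins Arrb1 in 55 and Arrb2 in 51, while the lowest number was 10. The median share was 55.6% for the channel list and 63.9% for the second list, against 27.8% over all genes that reached 10 CPM in a neuron.

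Other cells that carry these receptors were looked for by their markers over the 72 neurons. Of 8 macrophage and leukocyte genes 7 were detected, each in 4 or fewer neurons, with a summed level of 0 to 562 CPM and a median of 0.348 CPM, and Itgam had no counts. Of 7 endothelial genes 4 were detected, with Flt1 in 11 neurons, and of 6 smooth muscle and pericyte genes 5, each in 4 or fewer. All 5 fibroblast genes were detected, and their sum had a median of 45.8 CPM (0 to 876). Whether such transcripts contributed to the receptor counts was not tested.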

How the data were processed

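The authors deposited raw read counts, whole numbers for 50686 Ensembl genes in 84 single neurons. The submitters' processing notes name featureCounts. Its version, the aligner, the genome build, the annotation and the strand setting were not given in the sources used here. The labels mention no molecular identifiers, and amplified copies of a molecule may therefore each be counted.

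Symbols, coordinates and merged exon lengths come from GENCODE M21 (GRCm38), which matched 50376 identifiers and may differ from the annotation the authors used. Counts were scaled to CPM by the total of each neuron. The 12 neurons below 5000000 counts (576966 to 3892206) were left out. Detection was set at 10 CPM, and classes of neurons were cut at 5000 detected genes and at 10 CPM of Prdm12, Trpv1 or P2rx2. Because the neurons are 1 sample, no test was run: shares have exact 95% binomial intervals, differences of shares have Newcombe intervals, and the limit beside a share of 0 is that of 3 counts. A difference was named at 40 points. Each was read against all genes detected in 5 or more kept neurons, of which 5 members are part.

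The members, gene lists, classes and thresholds were chosen with earlier results of these data known. Genes named in the text were all 10 members, in each pathway list the 4 genes with the highest share of neurons and ties (lists of 6 or fewer whole), the 3 most similar genes of each member found in 8 or more of the more-gene neurons, genes overlapping a member, and the class markers, except items withheld from this text, which are not reported here; Ptgs1, Ptgs2, Pla2g4a and the marker genes of other cells were named after their values were seen. The 5-fold ratio of medians and the values within identifier blocks were added after seeing the data.

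Alternatives covered the detection limit, the depth filter, thinning every neuron to the lowest total, trimmed mean of M-values (TMM) scaling from edgeR 4.0.16 in R 4.3.3, the gene-number cut, the size rule and leaving out identifier blocks; no edgeR test was run. No doublet caller was run, since each neuron was collected by itself. Promoter windows are from RefSeq (GRCm38.p6). Analyses used Python 3.11.15, numpy 2.4.6, pandas 2.3.3, scipy 1.17.1 and matplotlib 3.10.9, and the steps were tested on simulated data.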

Additional observations from a re-analysis of the deposited data

Results flagged for a closer look

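In the 12 neurons left out for depth, 1 neuron, AM232, had Ptgir above the threshold, at 251.6 CPM. It stood out because these neurons were used in no comparison and the value lies far above the 3 counts that a count of 0 allows. No other member reached 10 CPM in these 12 neurons, where the next highest was Ptgdr with 18 counts (9.70 CPM).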

How the results depend on the processing

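None of the differences of 40 points or more in the report changed sign under an alternative. Of 856 alternative values, 758 stayed within the spread set for them, but these include many differences and medians of rare members. Among the shares of neurons and the numbers of members past the size, 147 stayed and 61 moved. At 1 count or more the shares of neurons were 31.9% for Ptger1, 69.4% for Ptger2, 13.9% for Ptger3, 91.7% for Ptger4, 88.9% for Ptgir, 56.9% for Ptgdr, 20.8% for Tbxa2r, 40.3% for Hrh1, 8.33% for Hrh2 and 16.7% for Hrh3, with 97.2% for any receptor and 43.1% for all 4 Gs-coupled prostanoid receptors. At 5 CPM Hrh1 had 20.8%. At 20 CPM Ptger2 had 22.2%, Ptgdr 18.1%, Hrh3 1.39%, all 4 together 4.17%, and Ptger1, Ptger3, Tbxa2r and Hrh2 0%. At 50 CPM Ptgir had 27.8%, Ptger2 11.1%, Ptgdr and Hrh1 4.17% each, any receptor 56.9%, and Hrh3, the 4 rarest members and all 4 together 0%. With TMM, whose factors ran from 0.0555 to 2.17, Ptger2 had 23.6%, Hrh3 1.39%, all 4 together 5.56%, and Ptger1, Ptger3, Tbxa2r and Hrh2 0%. Without identifier block 1 Ptger3, Tbxa2r and Hrh2 had 0%, and without block 3 Ptgir had 66.7% and Hrh3 0%. The number of members past the size between more-gene and fewer-gene neurons (4 as reported) was 2 at 1 count, which were Ptgdr (46.6 points) and Ptger1 (49.4 points), while Ptger4 fell to 12.1, Ptgir to 6.81 and Ptger2 to 36.8 points. It was 2 at 20 CPM and with TMM (Ptger4 and Ptgir), 1 at 50 CPM (Ptger4), and 3 with a higher minimum of counts per neuron (Ptgdr at 36.7 points), without block 1 or 2, at 4000 or 6000 genes and at a size of 50 points. Between Prdm12 and other neurons (0 as reported) it was 1 at 1 count (Ptger3), 1 at 50 CPM (Ptgir), 1 without block 3 (Ptger3, 50 points with 2 Prdm12 neurons) and 1 with no limit on genes (Ptgir, 41.1 points). Between Trpv1 and other neurons (0 as reported) it was 1 at 20 CPM (Ptgir, 41.7 points), 1 at 50 CPM (Ptgir), 1 without block 1 (Hrh3, which had 9.09 points with TMM), 1 without block 3 (Ptgdr, -52.8 points with 4 Trpv1 neurons), 1 at 6000 genes (Ptgdr, -41.5 points), 1 with no limit on genes (Ptgir, 43.1 points) and 3 at a size of 30 points. Between neurons with and without P2rx2 (0 as reported) it was 1 at 1 count (Hrh1, 41.03 points) and 2 without block 3 (Ptger1, -40.9 points, and Ptger2, -45.5 points against 15.4 as reported, with 2 neurons without P2rx2). The cause of these changes was not tested. No paired analysis was possible because the neurons form 1 group. The threshold of 10 CPM equals 67.3 counts in the neuron with the lowest total and more counts in deeper neurons, and the classes of 6 neurons give wide intervals.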
